A study of Mus musculus with 6 samples.

Results

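The 42 genes described here encode glycoproteins and proteoglycans of the extracellular matrix other than collagens, with the enzymes that crosslink them. They were taken by gene name from a list of non-collagen matrix genes, and all 42 were found among the 38553 genes of the deposited table. Of them, 36 passed a filter on low values, an FPKM over 5 in each control or in each mutant sample, and were tested. The 6 that did not reach it were *Mfap5*, *Lama1*, *Lama2*, *Lama5*, *Fmod* and *Prelp*. FPKM counts the sequenced fragments of a gene relative to gene length and to the yield of the library, so levels can be set side by side between genes. The list mixes matrix made by mesenchyme with proteins of the cell surface and of basement membranes.

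The RNA came from craniofacial tissue dissected from mouse embryos at E12.5, with 3 control and 3 *Rbfox2* mutant samples. *Rbfox2* encodes an RNA-binding protein that regulates splicing. Controls were Rbfox2 flox/flox, with floxed alleles and no Cre, and mutants were Pax3Cre/+:Rbfox2 flox/flox, so all samples share the floxed alleles and no sample was treated. Cre is expressed from the *Pax3* locus, in neural crest and in derivatives of paraxial mesoderm and somites, so that other cells of the tissue keep *Rbfox2*. Each mutant also carries the *Pax3* knock-in allele, which the controls lack, and its effect and that of *Rbfox2* loss cannot be told apart. The labels describe independent biological replicates and do not say whether a sample was 1 embryo or a pool.

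The extracellular matrix is a network that cells secrete and attach to. Adhesive glycoproteins such as fibronectin bind integrins on the cell surface, fibrillins and elastin form elastic fibres that lysyl oxidases crosslink, and laminins, nidogens and perlecan form basement membranes under epithelia and around muscle and nerve. Proteoglycans carry long sugar chains that hold water, space collagen fibrils or bind growth factors, and in the embryonic face this matrix surrounds the migrating neural crest and the mesenchyme of the palate and jaws.

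The FPKM of *Rbfox2* was 61.6 ± 3.29 in control and 36.2 ± 1.87 in mutant samples (SD, n = 3 each), a log2 fold change of -0.75 (standard error 0.079) with an adjusted p of 0.138 from limma. The deleted gene was still present as RNA at 58.8% of the control mean, and its groups did not overlap. Replicate 1 of each genotype lay away from the other 4 samples, at 19.1 and 17.0 on a first principal component that carried 54.7% of the variance of the tested genes, against -11.0 to -7.55. Y-linked genes were expressed in mutant replicates 1 and 2 and in no other sample. Markers of cranial mesenchyme were present in every sample, with a summed FPKM of 401 to 452 in controls and 366 to 448 in mutants and 0 markers at 0. The read number behind each value is unknown, and the summed FPKM per sample ran from 528123 to 590174.

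No tested gene of this list separated the 2 genotypes. None of the 36 tested members had an adjusted p under 0.05 in limma, 0 had an unadjusted p under 0.05, and each adjusted p was 1.0. The same shares of all 10061 genes tested were 0.0% and 1.66%. With the replicate number as a block in limma, 8 members had an unadjusted p under 0.05, as did 604 of all 10061 genes. No member had an adjusted p under 0.05 in that fit. The 3 mutant values lay outside the 3 control values in 0 of the 36, against 2.37% of all genes with the mutants lower and 2.63% with the mutants higher. Still, the mean was lower in the mutants for 34 of the 36, where 47.2% of all genes had a log2 fold change below 0. The median log2 fold change of the members was -0.15, against 0.0057 for all genes, and their log2 fold changes ran from -0.50 for *Aspn* to 0.076 for *Loxl1*. Control replicate 2 had the highest value in 30 of the 36, where 21.1% of all genes were highest in that sample. Without that sample 24 of the 36 were lower, the median was -0.041 and 0 had an unadjusted p under 0.05 in limma. Without control replicate 1, in contrast, 34 of the 36 were lower and the median was -0.31. In that limma fit 10 members had an unadjusted p under 0.05, as did 649 of all 10061 genes. The smallest adjusted p of a member was 0.734 from limma. In tissue of mixed cells, fewer cells of a type and less RNA per cell cannot be told apart.

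**Figure D1:**
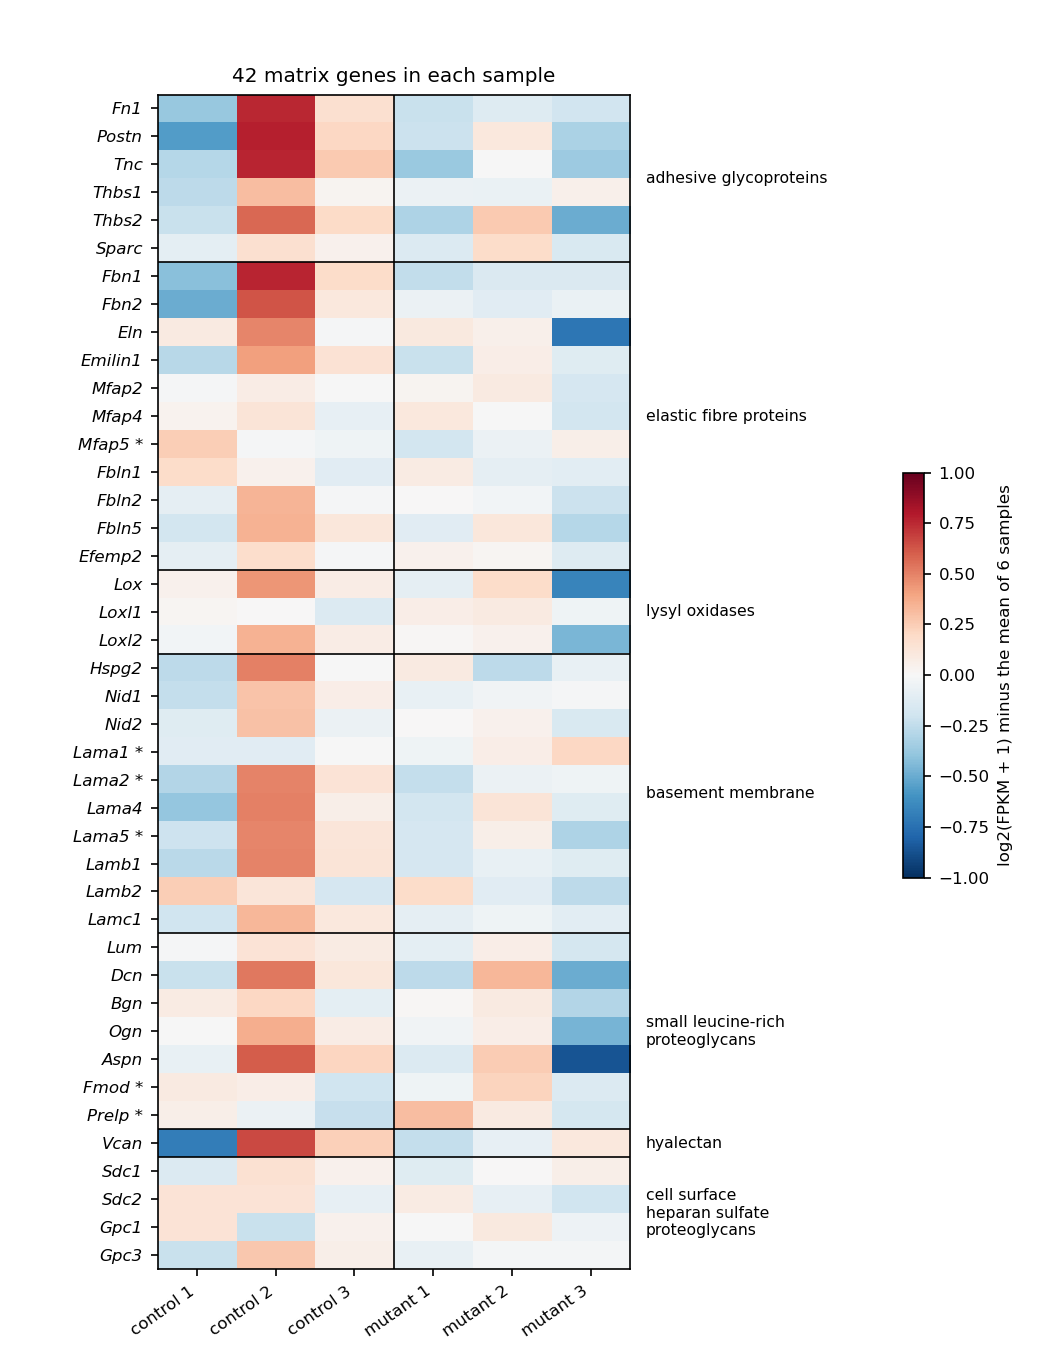
Level of the 42 matrix genes in each of the 6 samples, as log2(FPKM + 1) minus the mean of the gene over the 6 samples (red above, blue below), grouped by role. An asterisk marks the 6 genes that were not tested. Control replicate 2 is red in most rows and mutant replicate 3 is blue in *Eln*, *Lox* and the small leucine-rich proteoglycans.

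The mean of each of the 6 adhesive glycoproteins was lower in the mutants, with a median log2 fold change of -0.32. Values of single samples are given in the order of replicates 1, 2 and 3 throughout. *Fn1* (ENSMUSG00000026193, chromosome 1 of GRCm38 from 71585520 to 71653200, minus strand) encodes fibronectin, on which neural crest cells migrate. Its FPKM was 51.5, 114 and 75.6 in control replicates 1, 2 and 3 and 57.6, 61.6 and 59.0 in mutant replicates 1, 2 and 3. The mutant values were close together and lay between control replicates 1 and 3, while control replicate 2 was far above them. The means were 80.5 ± 31.7 in control and 59.4 ± 2.02 in mutant samples (SD, n = 3 each), and the log2 fold change was -0.36 (standard error 0.26), with a 95% confidence interval from -0.96 to 0.24. Leaving out control replicate 2 gave -0.070, leaving out control replicate 1 gave -0.64, and replicates 2 and 3 only gave -0.62. *Postn* (ENSMUSG00000027750, chromosome 3 from 54361109 to 54391037, plus strand) encodes periostin, a protein of mesenchyme and periosteum that binds integrins and collagen. *Postn* had an FPKM of 58.8, 149.8 and 101 in control and 75.0, 94.0 and 69.8 in mutant samples. The lowest and the highest value were both controls, 2.55-fold apart, and the mutants lay between them. Its log2 fold change of -0.28 (standard error 0.31), with a 95% confidence interval from -1.02 to 0.45, became 0.034 without control replicate 2, -0.63 without control replicate 1 and -0.60 in replicates 2 and 3 only. FPKM of a whole gene sums its transcripts, so changes in splicing need not show in these values. The authors reported altered splicing of *Fn1* and *Postn* in this tissue. They also reported lower *Fn1* RNA, by sequencing and quantitative PCR, and less fibronectin protein at a later stage.

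*Tnc* (ENSMUSG00000028364, chromosome 4 from 63959785 to 64047015, minus strand) encodes tenascin-C, which modulates adhesion to fibronectin and is abundant where mesenchyme condenses. The FPKM of *Tnc* was 15.2, 32.4 and 22.7 in control and 14.3, 18.7 and 14.4 in mutant samples. Mutant replicate 2 was above control replicate 1, so the groups overlapped, but control replicates 2 and 3 were above every mutant. Its means were 23.5 ± 8.63 in control and 15.8 ± 2.55 in mutant samples (SD, n = 3 each). The log2 fold change of -0.49 (standard error 0.25) had the smallest unadjusted p of the members, 0.0911 from limma with an adjusted p of 1.0, and the exact two-sided permutation p was 0.2, where 3 samples against 3 cannot give less than 0.10. With 1 sample left out, the log2 fold change of *Tnc* ran from -0.76 without control replicate 1 to -0.24 without control replicate 2. Of the thrombospondins, which bind matrix and cell surface receptors, *Thbs1* had an FPKM of 31.8, 47.5 and 39.1 in control and 36.7, 36.5 and 39.7 in mutant samples. *Thbs2* was lower, at 6.70, 12.4 and 9.27 in control and 6.27, 9.76 and 5.37 in mutant samples, and mutant replicate 3 was its lowest sample. The log2 fold change of *Thbs2* was -0.36 (standard error 0.25). Leaving out control replicate 2 brought it to -0.17, and leaving out mutant replicate 2 brought it to -0.58. *Sparc*, which encodes osteonectin, a collagen-binding protein, was the most abundant member, at 253, 302 and 279 in control and 246, 307 and 243 in mutant samples. Its values differed 1.26-fold at most over the 6 samples.

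Promoters are shown for *Postn* and for those of the 5 members with the lowest log2 fold changes that had an entry in the RefSeq table for GRCm38.p6, as the 250 bases before the start that lies nearest to the annotated start of the gene. The 4 genes, *Postn*, *Tnc*, *Thbs2* and *Aspn*, were all highest in control replicate 2. Of the 42 members, 25 had an entry, with 32 windows. Capitals mark matches, on either strand, to the TATA box letters TATAAA and to the letters CAGAC of the SMAD box, which TGF-β signalling uses. The AP-1 letters TGANTCA were also searched.
Postn, chr3:54360857-54361106, plus strand: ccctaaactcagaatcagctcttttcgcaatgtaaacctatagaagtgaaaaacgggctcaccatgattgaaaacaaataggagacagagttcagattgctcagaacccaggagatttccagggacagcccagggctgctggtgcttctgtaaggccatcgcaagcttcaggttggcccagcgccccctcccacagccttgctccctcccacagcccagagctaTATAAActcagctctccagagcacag
Tnc, chr4:64047016-64047265, minus strand: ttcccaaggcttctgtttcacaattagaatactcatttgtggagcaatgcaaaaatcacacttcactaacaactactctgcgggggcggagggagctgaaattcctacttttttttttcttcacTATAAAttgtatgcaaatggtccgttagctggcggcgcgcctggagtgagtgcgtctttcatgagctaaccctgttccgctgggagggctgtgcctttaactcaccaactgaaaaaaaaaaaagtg
Thbs2, chr17:14694263-14694512, minus strand: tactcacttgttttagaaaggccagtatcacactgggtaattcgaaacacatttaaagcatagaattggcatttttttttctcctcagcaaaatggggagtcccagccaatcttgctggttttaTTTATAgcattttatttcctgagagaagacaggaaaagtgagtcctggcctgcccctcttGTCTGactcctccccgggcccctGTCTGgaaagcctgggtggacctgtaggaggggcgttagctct
Aspn, chr13:49544193-49544442, plus strand: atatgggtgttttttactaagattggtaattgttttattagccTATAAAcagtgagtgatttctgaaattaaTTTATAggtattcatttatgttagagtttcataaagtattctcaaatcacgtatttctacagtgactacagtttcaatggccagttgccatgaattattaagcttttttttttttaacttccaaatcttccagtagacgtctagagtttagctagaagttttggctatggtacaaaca
Each of these 4 windows held TATAAA or its reverse complement, as did 6 of the 32 windows of members and 12.4% of the 32851 windows of all genes. CAGAC was in 17 of the 32 and in 42.2% of all windows. TGANTCA was in 0 of the 32 and in 6.7% of all windows. Such a match describes the letters and is not evidence of binding.

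**Figure D2:**
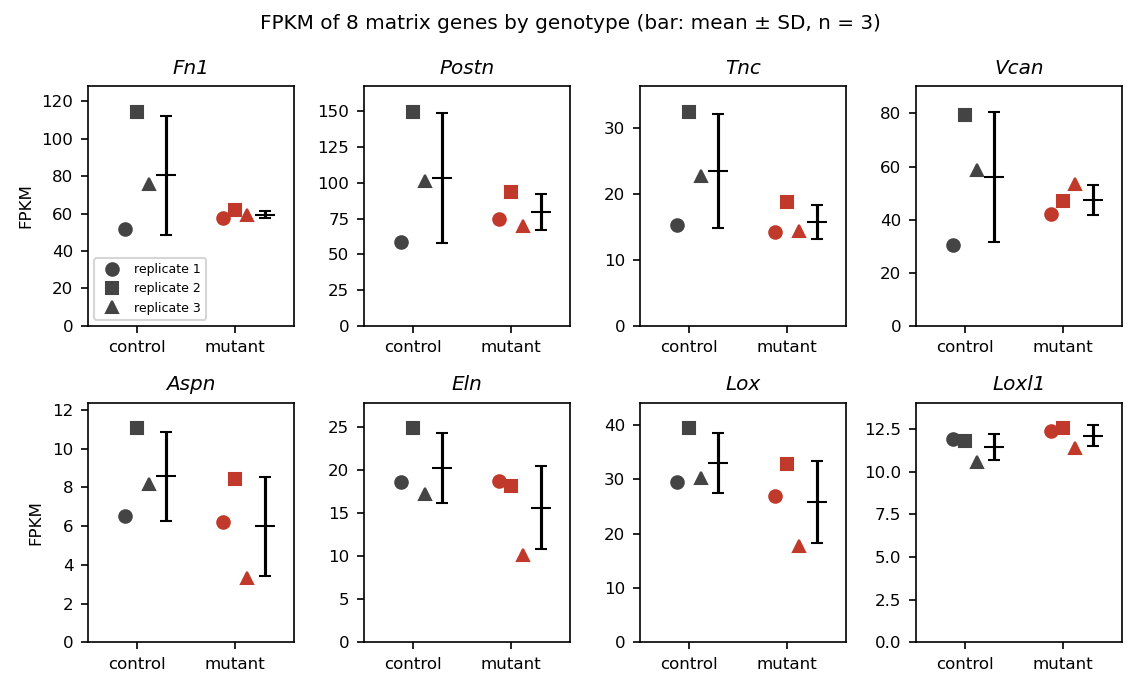
FPKM of 8 matrix genes in the 3 control (grey) and 3 mutant (red) samples, with the replicate number as the shape of the point and bars for mean ± SD (n = 3). Control replicate 2, a square, is the top point for *Fn1*, *Postn*, *Tnc*, *Vcan*, *Aspn*, *Eln* and *Lox*, and mutant replicate 3, a triangle, is the bottom point for *Aspn*, *Eln* and *Lox*.

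Of the 11 genes of elastic fibres, 10 were tested and the mean of all 10 was lower in the mutants, with a median log2 fold change of -0.16. *Fbn1* and *Fbn2* encode fibrillins, the long proteins of microfibrils. The FPKM of *Fbn1* was 7.79, 18.9 and 12.3 in control and 8.92, 9.64 and 9.63 in mutant samples. *Fbn2* was higher, at 16.8, 37.6 and 25.9 in control and 23.0, 22.2 and 22.8 in mutant samples. In both, control replicate 1 was lowest and control replicate 2 highest, and the 3 mutants differed little from each other. *Eln* encodes elastin, the core of the mature fibre, and its FPKM was 18.6, 24.9 and 17.3 in control and 18.7, 18.1 and 10.1 in mutant samples. Its low sample was mutant replicate 3, with the other 2 mutants between control replicates 3 and 2. Its log2 fold change was -0.38 (standard error 0.24), and -0.12 without mutant replicate 3 or -0.23 without control replicate 2. *Emilin1*, which encodes a glycoprotein at the interface of elastin and microfibrils, had an FPKM of 64.4, 104 and 86.7 in control and 67.2, 82.3 and 72.0 in mutant samples.

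The small microfibril proteins are encoded by *Mfap2*, *Mfap4* and *Mfap5*. *Mfap2*, the third most abundant member after *Sparc* and *Gpc3*, had an FPKM of 268, 284 and 268 in control and 274, 286 and 239 in mutant samples. All its values lay within 1.19-fold of each other, and its log2 fold change was -0.039 (standard error 0.10), with a 95% confidence interval from -0.27 to 0.19. *Mfap4* was at 111, 119 and 103 in control and 117, 108 and 95.8 in mutant samples. *Mfap5* was close to absent, from 0.526 to 1.05 over the 6 samples. Fibulins link elastin to microfibrils and to basement membranes. *Fbln1* had an FPKM of 96.7, 87.6 and 78.2 in control and 89.7, 79.6 and 78.7 in mutant samples, and its highest sample was control replicate 1. In the other 3 fibulins control replicate 2 was the highest sample. *Fbln2* was at 51.4, 69.4 and 54.4 in control and 54.9, 53.7 and 47.0 in mutant samples. *Fbln5*, needed for elastic fibre assembly, was at 8.06, 12.2 and 10.2 in control and 8.54, 10.2 and 7.47 in mutant samples. The last fibulin, *Efemp2*, brings lysyl oxidase to elastin, and its FPKM was 54.4, 65.5 and 57.5 in control and 59.8, 58.7 and 53.0 in mutant samples. Control and mutant values of all 4 fibulins overlapped, and the log2 fold change of *Efemp2* was -0.046 (standard error 0.10), with a 95% confidence interval from -0.27 to 0.18.

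Lysyl oxidases crosslink elastin and collagen. *Lox* had an FPKM of 29.6, 39.4 and 30.1 in control and 26.9, 32.7 and 17.8 in mutant samples. Mutant replicate 3 was well below the rest, control replicate 2 was the highest, and the other 4 samples lay between 26.9 and 32.7. The log2 fold change of *Lox* was -0.37 (standard error 0.22). Without mutant replicate 3 it was -0.14, and it was -0.24 without control replicate 2 and -0.56 without mutant replicate 2. *Loxl2* showed the same order at its ends, at 15.0, 19.7 and 16.1 in control and 15.4, 15.8 and 10.8 in mutant samples. *Loxl1*, the oxidase tied to elastic fibre upkeep, was at 11.9, 11.8 and 10.6 in control and 12.4, 12.54 and 11.4 in mutant samples. It was 1 of the 2 tested members with a higher mean in the mutants and the only one that was higher in the mutant at each replicate number. Its log2 fold change of 0.076 (standard error 0.083) was smaller than the standard error and its 95% confidence interval ran from -0.12 to 0.27.

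Of the 10 basement membrane genes, 7 were tested, and the mean of all 7 was lower in the mutants, with a median log2 fold change of -0.13. Laminins are trimers of an α, a β and a γ chain. The β1 chain gene *Lamb1* had an FPKM of 30.8, 53.1 and 40.9 in control and 33.0, 35.4 and 34.3 in mutant samples. The γ1 chain gene *Lamc1* was at 18.3, 27.0 and 22.9 in control and 19.9, 20.6 and 19.7 in mutant samples. Both were highest in control replicate 2 and lowest in control replicate 1, with the mutants close together between control replicates 1 and 3. *Lamb2*, the β2 chain gene, was at 17.2, 15.7 and 12.7 in control and 16.5, 13.2 and 11.8 in mutant samples and was highest in control replicate 1. Of the α chains, *Lama4*, found around vessels and in mesenchyme, was the most abundant, at 12.7, 24.4 and 17.6 in control and 14.8, 18.6 and 15.5 in mutant samples. The other α chains were below the filter, with FPKM of 2.97 to 3.94 for *Lama1*, 1.95 to 4.10 for *Lama2* and 3.34 to 6.56 for *Lama5*. For *Lama1*, 3 mutant values of 3.15, 3.48 and 3.94 stood against 2.97, 2.97 and 3.28 in controls, and the groups overlapped. Nidogens bind laminin to the collagen network. *Nid1* had an FPKM of 31.6, 45.7 and 39.2 in control and 35.3, 36.3 and 37.1 in mutant samples. *Nid2* was at 22.9, 30.9 and 24.0 in control and 25.1, 25.8 and 22.4 in mutant samples. The perlecan gene *Hspg2*, a heparan sulfate proteoglycan, was at 8.05, 14.4 and 9.85 in control and 10.6, 8.04 and 9.33 in mutant samples, and its lowest samples were mutant replicate 2 and control replicate 1. In none of the 7 did the groups separate.

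Small leucine-rich proteoglycans bind collagen fibrils and control their width. In each of the 5 tested members of this family, control replicate 2 was the highest sample, mutant replicate 3 was the lowest, and the mutant was lower than the control at each replicate number. *Lum*, the gene of lumican, had an FPKM of 77.6, 86.2 and 83.1 in control and 73.0, 82.2 and 69.2 in mutant samples. *Dcn*, the gene of decorin, was at 30.2, 51.4 and 38.2 in control and 29.3, 44.7 and 24.7 in mutant samples. *Bgn*, the gene of biglycan, was at 79.6, 86.7 and 70.2 in control and 75.8, 79.9 and 61.2 in mutant samples. In *Dcn* and *Bgn*, mutant replicate 2 was above 2 of the controls. *Ogn*, the gene of osteoglycin, was at 30.0, 39.2 and 31.9 in control and 29.3, 31.7 and 21.6 in mutant samples, and mutant replicate 2 was above control replicate 1. *Aspn* encodes asporin, a protein of perichondrium and periosteum that binds TGF-β, and its FPKM was 6.53, 11.1 and 8.17 in control and 6.20, 8.44 and 3.34 in mutant samples. Mutant replicate 3 was far below the other samples, 3.31-fold under control replicate 2, and mutant replicate 2 was above control replicates 1 and 3. The log2 fold change of *Aspn*, -0.50 (standard error 0.30), was the lowest of the tested members, with a 95% confidence interval from -1.19 to 0.20. It was -0.19 without mutant replicate 3, where *Tnc* was at -0.43, -0.32 without control replicate 2 and -0.75 without mutant replicate 2. *Aspn* was also the 1 member of the 36 that passed the filter through the controls alone, since mutant replicate 3 was under an FPKM of 5, so the filter favoured its direction. The median log2 fold change of the 5 was -0.28, and being lowest in mutant replicate 3, as 18 of the 36 members were, was true of 12.0% of all genes tested. The 2 members below the filter did not follow this order, with FPKM of 5.16, 5.07 and 4.06 in control and 4.62, 5.78 and 4.28 in mutant samples for *Fmod* and 1.44, 1.25 and 0.995 in control and 1.90, 1.49 and 1.07 in mutant samples for *Prelp*. Members of this family lie side by side in the genome, with 40.5 kb between *Aspn* and *Ogn* on chromosome 13, 47.0 kb between *Dcn* and *Lum* on chromosome 10 and 115.8 kb between *Prelp* and *Fmod* on chromosome 1.

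*Vcan* encodes versican, the large hyaluronan-binding proteoglycan that surrounds migrating neural crest. Its FPKM was 30.5, 79.3 and 58.8 in control and 42.1, 47.0 and 53.4 in mutant samples. The mutants lay between control replicate 1, the lowest, and control replicate 3. Its log2 fold change of -0.14 became 0.15 once control replicate 2 was left out. Syndecans and glypicans are the heparan sulfate proteoglycans of the cell surface, where they act as co-receptors for growth factors. *Sdc1*, a syndecan of epithelia, had an FPKM of 71.0, 87.3 and 80.6 in control and 71.9, 78.6 and 81.7 in mutant samples. *Sdc2*, a syndecan of mesenchyme, was at 26.2, 26.3 and 22.5 in control and 25.3, 22.4 and 20.6 in mutant samples. The glypican gene *Gpc3*, which restrains growth, was at 231, 325 and 280.5 in control and 255, 266 and 266 in mutant samples and the other glypican gene, *Gpc1*, was at 78.3, 60.9 and 73.4 in control and 70.8, 76.4 and 68.6 in mutant samples. *Gpc1* was the only tested member whose lowest sample was control replicate 2. The log2 fold changes were -0.037 (standard error 0.10) for *Sdc1* and 0.027 (standard error 0.11) for *Gpc1*, the other member with a higher mean in the mutants, and both were smaller than their standard errors.

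**Figure D3:**
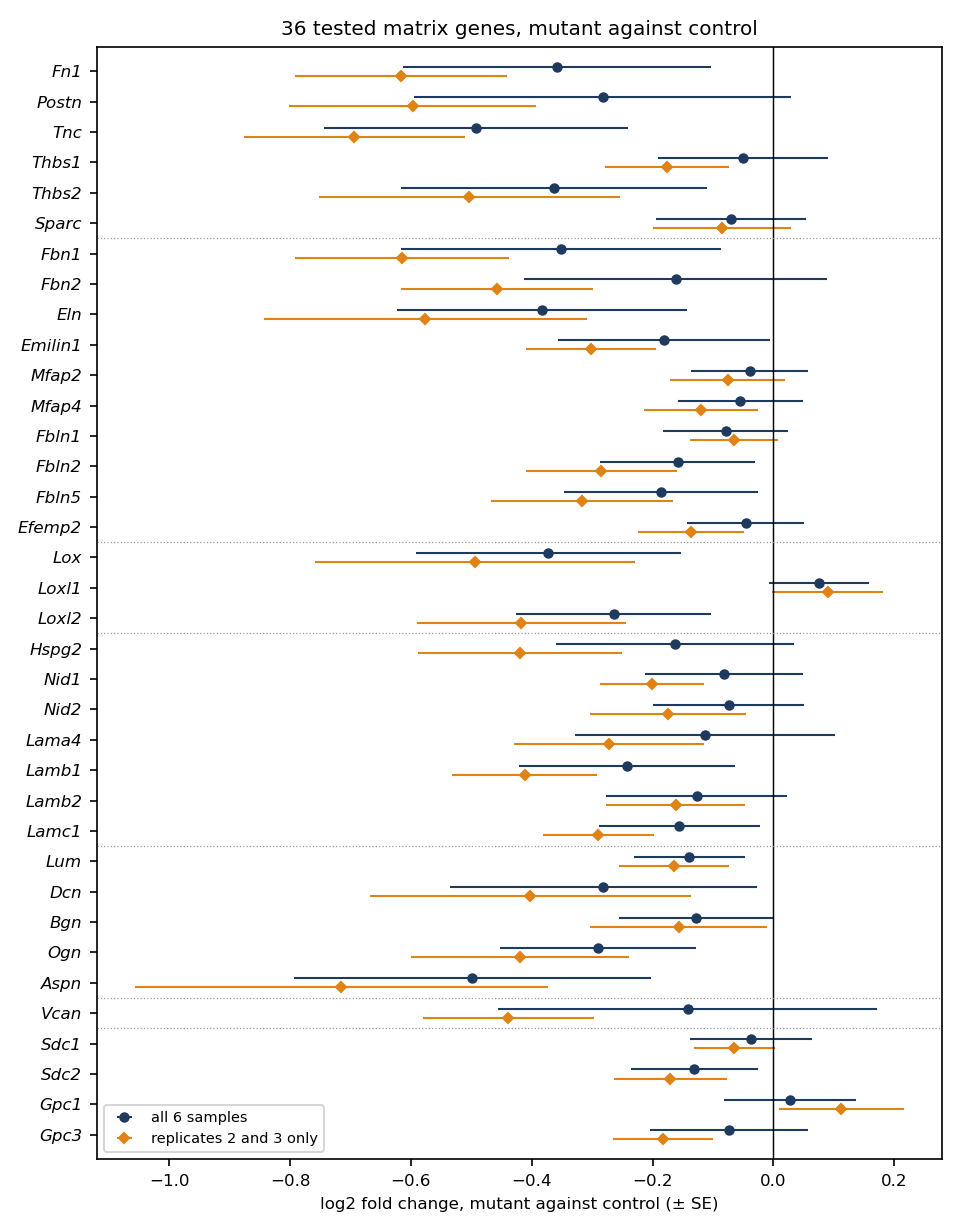
Log2 fold change of each of the 36 tested matrix genes, mutant against control, with the standard error as a bar, from all 6 samples (blue) and from replicates 2 and 3 only (orange), on the log2(FPKM + 1) scale. With all samples, 34 points lie below 0, and with replicates 2 and 3 only most points lie further below 0.

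The samples share replicate numbers across the genotypes, and the difference between mutant and control was not the same at each number. At replicate 1 the mutant was lower in 13 of the 36 members, against 54.6% of all genes, and the median difference was 0.054. At replicate 2 it was lower in 32, against 48.4% of all genes, with a median of -0.30. At replicate 3 it was also lower in 32, against 44.3% of all genes, with a median of -0.20. Each of these differences rests on 1 sample against 1. For *Vcan* the 3 differences were 0.45, -0.74 and -0.14, and for *Fbn2* they were 0.43, -0.74 and -0.18, so both genes were higher in the mutant of replicate 1. *Fn1*, at 0.16, -0.88 and -0.35, and *Postn*, at 0.35, -0.67 and -0.53, had the same signs. In all, 19 members were higher in the mutant at replicate 1 and lower at replicates 2 and 3, among them 6 of the 7 basement membrane genes and 8 of the 10 elastic fibre genes. The share of all genes with these signs was not counted, so this count cannot be set against all genes. The mutant was lower at each of the 3 numbers for 10 members, against 13.1% of all genes, and these were the 5 small leucine-rich proteoglycans with *Tnc*, *Thbs2*, *Lox*, *Lamb2* and *Sdc2*. The 3 differences were -0.089, -0.76 and -0.63 for *Tnc* and -0.065, -0.35 and -1.08 for *Aspn*.

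**Figure D4:**
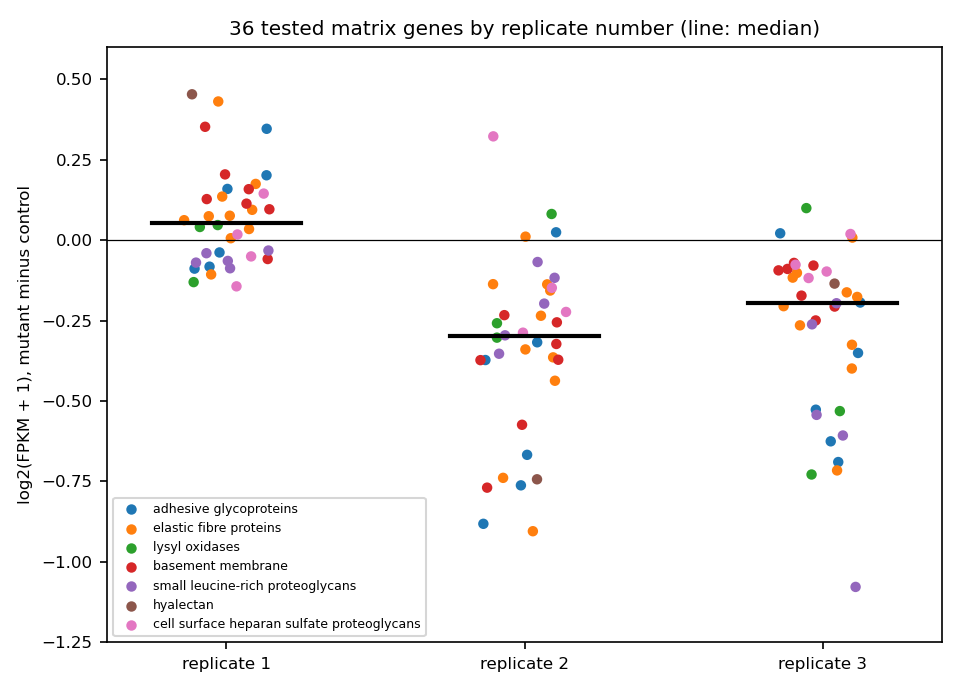
Difference between the mutant and the control of the same replicate number, on the log2(FPKM + 1) scale, for the 36 tested matrix genes, with a point per gene coloured by role and a line at the median. The medians are 0.054, -0.30 and -0.20 at replicates 1, 2 and 3.

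With the replicate number as a block in limma, 8 members had an unadjusted p under 0.05, all lower in the mutants, against 3.7% of all genes that were lower with such a p. They were *Tnc*, *Lox*, *Thbs2*, *Ogn*, *Eln*, *Aspn*, *Dcn* and *Bgn*, and the smallest adjusted p among them was 0.768 from limma. *Aspn* is counted here although it passed the filter through the controls alone. With 1 control and 1 mutant at each number, the block cannot change the log2 fold change of *Tnc*, whose standard error was 0.13 in that fit. The block treats replicates 2 and 3 as separate pairs, which the values do not tell apart. With a term for the first replicates alone, 1 member, *Tnc*, had an unadjusted p under 0.05 in limma, as did 611 of all genes. Replicates 2 and 3 alone gave 10 members with an unadjusted p under 0.05, all lower in the mutants, against 5.56% of all genes, and the smallest adjusted p among members was 0.371 from limma. The 10 were *Tnc*, *Fn1*, *Fbn1*, *Lamb1*, *Lamc1*, *Vcan*, *Postn*, *Fbn2*, *Emilin1* and *Hspg2*, with log2 fold changes from -0.69 for *Tnc* to -0.29 for *Lamc1*. Of these, *Tnc* was the only one also among the 8 of the block. With the mean level of 4 Y-linked genes as a covariate, 5 members had such a p, all lower, against 1.25% of all genes, with a smallest adjusted p of 0.999 from limma. They were *Eln*, *Lox*, *Aspn*, *Ogn* and *Loxl2*, and the lowest sample of each was mutant replicate 3, which alone among the mutants lacked Y-linked expression. The covariate takes up the level of mutant replicates 1 and 2, so the genotype term of this fit comes in effect from 1 mutant sample against the controls, and the 5 members describe that sample. *Bgn* and *Gpc3* lie on the X chromosome.

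The difference between control replicates 2 and 1, the only pair of controls compared in this way, was larger in longer members. Between control replicates 2 and 1, the median log2 difference was 1.005 for the 10 members with over 8000 exonic bases, 0.43 for the 15 with 4000 to 8000 and 0.26 for the 11 with at most 4000. The same medians over all genes tested were 0.16, 0.034 and 0.0096. Across the 36 members, Spearman's rho of this difference with exonic length was 0.73 and Pearson's r with log2 length was 0.66, against 0.18 and 0.18 over 10005 genes. *Vcan*, *Hspg2*, *Fbn2*, *Fbn1*, *Lama4* and *Fn1* are the longest tested members. For the mutant against the control in replicates 2 and 3, rho with length was -0.56 over the members and -0.21 over all genes, and at replicate 1 it was 0.53 and 0.26. The first of these contrasts subtracts control replicate 2 and the other subtracts control replicate 1. Both therefore share a library with the difference between these controls and are not separate observations. With all samples, rho was -0.41 over the members and -0.066 over all genes. These are descriptions across genes that share the same libraries, the genes are not independent replicates, and FPKM already divides by a gene length.

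**Figure D5:**
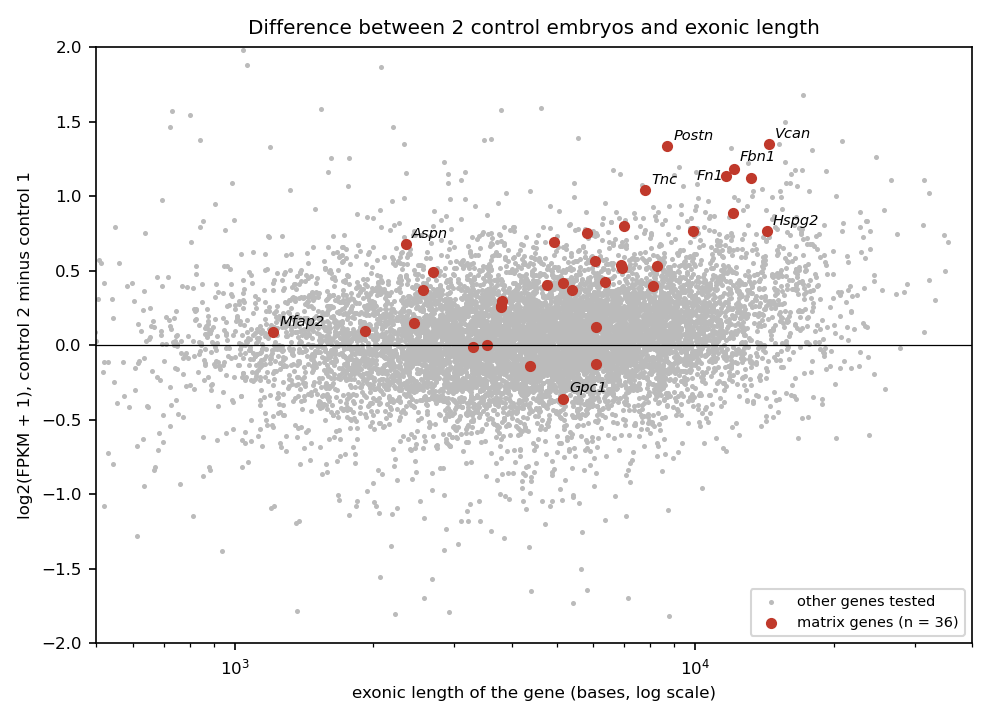
Difference between control replicates 2 and 1, on the log2(FPKM + 1) scale, against exonic length in bases (log axis) for the 36 tested matrix genes (red) and the other genes tested (grey). Of 10005 points, 58 lie outside the axes and none of them is a matrix gene. The red points climb to the right, where *Vcan*, *Fbn1*, *Fn1* and *Postn* lie over 1 log2 unit above 0.

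Marker genes of several other cell types were also highest in control replicate 2, as were 21.1% of all genes tested. All 7 markers of skeletal muscle were highest in it, and their summed FPKM was 421 there, 158 to 421 over the controls and 152 to 234 over the mutants. Of the 8 markers of surface and oral epithelium, 7 were highest in it, with sums of 135 to 245 in controls and 137 to 194 in mutants. The 3 osteoblast markers were highest in it as well, at 24.1 to 33.1 in controls and 19.9 to 26.6 in mutants, with mutant replicate 3 the lowest. Of the 6 cartilage markers, 4 were highest in it, with sums of 168 to 244 and 168 to 222, and of the 7 endothelial markers, 5 were, with sums of 105 to 125 and 110 to 121. In contrast, 7 of the 8 neuron markers were lowest in it, and neurons were the list whose groups did not overlap, with sums of 664 to 779 in controls and 836 to 925 in mutants. Sums of neural progenitor markers were 166 to 258 in controls and 211 to 253 in mutants, those of erythroid markers 4096 to 8277 and 5369 to 9401, and those of macrophage markers 31.2 to 38.9 and 31.2 to 42.6. Control replicate 2 was the highest sample for 2 of the 8 cranial mesenchyme markers and 2 of the 5 macrophage markers. It was highest for 0 markers of neurons, neural progenitors and erythroid cells. No marker of any of the 10 lists was at 0 in a sample. The part of these cell types in the values of the matrix genes was not tested.

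Counts for matrix genes outside the 42 are given beside those of the members. Of 66 other glycoproteins, proteoglycans and matrix enzymes in the table, 30 were tested and 20 had a lower mean in the mutants, with a median log2 fold change of -0.058, and 18 were highest in control replicate 2. Of 44 collagen genes, 26 were tested, 21 were lower, the median was -0.17, and 24 were highest in control replicate 2. In each list 1 gene had an unadjusted p under 0.05 and an adjusted p of 1.0 from limma, and both genes were chosen after their values were seen. *Gpc6*, a glypican, had an FPKM of 19.4, 25.3 and 21.9 in control and 19.1, 17.6 and 18.0 in mutant samples, and every mutant was below every control. Its log2 fold change was -0.27 (standard error 0.11). *Col1a1*, which encodes the α1 chain of type I collagen, was at 135, 162 and 123 in control and 113, 121 and 82.1 in mutant samples, again with the groups apart, and its log2 fold change was -0.42 (standard error 0.17).

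Some values are uncertain because exons overlap. In the annotation, exons of 16 of the 42 members overlap those of another gene, mostly on the other strand, and the setting with which reads were assigned to strands is not given in the sources used here. The overlap covers 20.1% of the exonic length of *Fbn1* and 18.9% of that of *Gpc1*, and under 10% in the other 14. It covers 2.50% of *Fn1* and 2.26% of *Tnc*.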

How the data were processed

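The authors prepared stranded poly(A)+ libraries, sequenced them paired-end and aligned the reads to GRCm38 with STAR. FastQC 0.11.4 and Cuffdiff are also named in the submitters' processing notes, and the annotation and the step that made the gene table are not given in the sources used here. The deposited values are FPKM, given by the authors for whole genes in a table of all samples and in tables of single samples, which held the same values (0 differences). Counts and depth cannot be read from FPKM, so no interval for counting error is given.

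The samples were grouped by genotype from their labels. The 10061 genes with an FPKM over 5 in each control or in each mutant sample were tested on log2(FPKM + 1), with a pseudocount of 1, using limma 3.58.1 (R 4.3.3) with no covariate, a trend on intensity and Benjamini-Hochberg adjustment over all of them. Fold changes on this scale understate those of genes with low FPKM. A limma p-value sets the difference between the groups against the spread within them, which is estimated with help from all genes tested. With no covariate, that spread includes the shift of the first replicates. Single genes were also compared by exact two-sided permutation tests in scipy 1.17.1. The fit was checked on simulated data with independent noise in each sample. The simulation held no shift shared by the first replicates, so the check does not cover that shift. Fold changes with errors are given for *Fn1*, *Postn*, members with an unadjusted p under 0.05 or with groups that do not overlap, and the 5 members with the highest and the 5 with the lowest log2 fold change. The members, lists and tests were chosen with earlier results of these data known. Positions, exonic lengths and overlaps are from GENCODE M21 for GRCm38, which held a length for 10005 of the genes tested.

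The control and the mutant of each number deviated from their group means together (r = 0.64, 0.26 and 0.51 across genes, each over 0.1), and the replicate numbers were taken to pair the samples. Samples with other numbers correlated at 0.40 (control 3 with mutant 2) and 0.23 (control 2 with mutant 3), and below 0 where 1 was a first replicate, so the values set the first replicates apart and do not tell numbers 2 and 3 apart. No label ties a litter or a day to a number. The alternatives were a pseudocount of 0.1, median-ratio scaling, quantile normalization, the replicate block, a term for the first replicates, replicates 2 and 3 only, the Y-linked covariate, an FPKM filter of 1, no filter, no trend, and each sample left out in turn.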

Additional observations from a re-analysis of the deposited data

How the results depend on the processing

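Among members, 0 had an adjusted p under 0.05 in limma under every alternative run. The count with an unadjusted p under 0.05, 0 with all samples, was 8 with the replicate block, 1 with a term for the first replicates, 10 in replicates 2 and 3 only and 5 with the Y-linked covariate. It was 0 to 10 with 1 sample left out. The 10 were reached without control replicate 1, against 649 of all 10061 genes. Without mutant replicate 2 it was 3, against 108 of all 10061 genes, and *Aspn*, which passed the filter through the controls alone, was among them. The count of members whose groups do not overlap was followed in alternatives chosen after the data were seen. It was 1 with quantile normalization, where the share of all genes was not counted. In replicates 2 and 3 only it was 17, where 45.0% of all genes did not overlap. With 1 sample left out it was 0 to 14, the 14 being without control replicate 1, against 24.4% of all genes. Without mutant replicate 2 it was 8, against 9.5%. With fewer samples such a split is more common, and 5.0% of all genes did not overlap with all samples. The median log2 fold change of the members ran from -0.31 without control replicate 1 to -0.041 without control replicate 2, with 24 to 35 of the 36 below 0. With no filter, 37 of the 42 were below 0. Among the results for members, the replicate block moved only the count with an unadjusted p under 0.05. With 1 control and 1 mutant at each number, the block cannot change a log2 fold change. The median and the count below 0 therefore could not move.

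Over all genes, the count with an adjusted p under 0.05 was 3 with the first-replicate term, 4 in replicates 2 and 3 only and 0 to 1 with 1 sample left out, the 1 being without mutant replicate 3. The count with an unadjusted p under 0.05 was 604 with the replicate block, 611 with the first-replicate term, 1103 in replicates 2 and 3 only, 304 with an FPKM filter of 1, 663 with no filter and 78 to 649 with 1 sample left out, the ends being without control replicate 2 and without control replicate 1. *Rbfox2* passed an adjusted p of 0.05 in limma with the first-replicate term, at -0.75, and in replicates 2 and 3 only, at -0.82.

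Of 192 alternative values of the 12 members with a printed fold change and error by rule, 11 changed sign, in 6 members. The replicate block, the first-replicate term, the other filters and the fit with no trend cannot change the log2 fold change of a gene. Their values are among the 192 and could not change sign, so the share that changed understates the shifts. With the Y-linked covariate, the log2 fold change was 0.042 for *Sdc1*, -0.037 for *Gpc1* and -0.0038 for *Loxl1*. With 1 sample left out it ran from -0.63 to 0.034 for *Postn*, from -0.10 to 0.029 for *Efemp2*, from -0.092 to 0.036 for *Mfap2*, from -0.12 to 0.030 for *Sdc1* and from -0.077 to 0.10 for *Gpc1*. The cause of these shifts was not tested. Read numbers are unknown, so counting error could not be given.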
